A study of Mus musculus with 75 samples.

Results

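Repeated leptin was compared with saline in the nuclei of hypothalamic cells that carry the leptin receptor, in mice fasted for 36 h. The comparison rests on 8 of the 75 samples of the series, namely every library of GFP-positive nuclei labelled FasLLL or FasSSS in ATAC-seq and in H3K27ac ChIP-seq, 2 libraries per group and assay. All mice were LepRcre/+; SUN1-sfGFP/+, so Cre made from the leptin receptor gene switches on a green fluorescent tag of the nuclear envelope. They were at least 2 months old. The FasLLL mice, called repeated leptin here and labelled as 24 hours of leptin, received leptin at 5 mg/kg at 12, 24 and 34 h of the fast. The FasSSS mice, called saline here, received saline at the same times. Side values come from the other groups of the same tables: the same treatments in GFP-negative nuclei, a single injection of leptin at 34 h in fasted mice (FasSSL), and mice fed freely for 36 h (FedSSS). Both groups compared were fasted, so they differ in leptin and not in feeding.

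Leptin is a hormone of fat tissue whose blood level drops in fasting. It binds the long receptor form, LepRb, on neurons of the arcuate, ventromedial, dorsomedial and other hypothalamic nuclei, and the receptor signals through the kinase JAK2 to the transcription factor STAT3, which binds DNA. Injecting leptin during a fast returns part of the lost signal. ATAC-seq measures open chromatin, since a transposase inserts sequencing adapters where DNA is not wrapped in nucleosomes, and H3K27ac is an acetylated histone found at active promoters and enhancers. The tag marks every cell that has expressed the Cre driver, and hypothalami were pooled before sorting, so each library averages many kinds of LepRb cell. The labels do not say whether replicates came from separate pools of mice, so the p-values rest on library-to-library spread alone, and that spread may be technical.

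The ATAC table held 48634 regions, of which 31358 (64.5%) had a mean normalized signal of at least 10 over the 16 libraries of the assay and were tested. The H3K27ac table held 126368 regions, of which 98529 (78%) were tested. The filter used all 16 libraries, so 1903 ATAC and 3415 H3K27ac regions were tested although their mean over the 4 libraries compared was under 10. The ATAC region nearest above the threshold held 17.8 and 10.5 in repeated leptin and 15.5 and 8.4 in saline, and the nearest below held 11.3 and 15.8 against 3.2 and 6.1. The files pair regions with no gene, so regions are named by mm9 position, and the sort could not be checked against marker genes.

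Read depth is unknown, and some libraries stood apart. In ATAC, saline replicate 2 had 7.31% of all regions at 0 and only 3 distinct values between 0 and 10, the smallest being 3.7. The other 3 ATAC libraries had 3.09 to 3.83% of regions at 0 and 6 to 12 such values. In H3K27ac, repeated-leptin replicate 1 was weakly enriched, as was replicate 1 of the fed, single-leptin and GFP-negative repeated-leptin groups, 6 libraries in all. In repeated-leptin replicate 1, the 25% of tested autosomal regions with most signal per length exceeded the 25% with least by 1.02 log2 units, against 1.61 in repeated-leptin replicate 2 and 1.77 and 1.63 in saline. Chromosome X held 0.86% of that library's signal against 1.31 to 1.41% in those 3 libraries, and mitochondrial DNA 0.107% against 0.0102 to 0.0287%. Neither saline library is in this weak set, so H3K27ac values are given with both repeated-leptin libraries and with replicate 2 alone.

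Open chromatin passed the test between repeated leptin and saline at 1 region of 31358, a 450 bp stretch on chromosome 6 that was more open after leptin. No other region passed the test in either direction. Changes were small at most places: the middle of the distribution lay at a log2 change of −0.01, and 50% of regions fell between −0.24 and 0.23. Across regions, Pearson's r of log2 signal was 0.865 between the repeated-leptin libraries and 0.822 between the saline libraries. Between a repeated-leptin and a saline library it ran from 0.816 to 0.911, so the most alike of the 4 libraries were 1 of each treatment, both numbered replicate 1.

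The called region lies at chr6:85806164-85806613 and falls inside an H3K27ac region. Its normalized signal was listed at 0 in both saline libraries and was 4.6 and 14.5 with repeated leptin. The groups did not overlap, and the log2 change of signal + 1 was 3.22 (SE 0.52, limma adjusted p = 0.0407). No fold is given, since saline is listed at 0. The signal was low in the other GFP-positive libraries too: these held 6.1 and 6.3 after a single leptin injection and 7.7 and 4 when fed. GFP-negative nuclei held more, with 17 and 23.6 in saline and 8.2 and 19.9 after repeated leptin. The lowest values of all 16 libraries were thus those of GFP-positive saline nuclei. A region called as higher than saline tends to have low saline values, so this is a description. The change in GFP-positive nuclei exceeded that in GFP-negative nuclei by 3.82 log2 units (SE 0.74), which did not pass the test of the difference (limma adjusted p = 0.585). The call was lost without repeated-leptin replicate 2 (log2 2.49, limma adjusted p = 0.676), without saline replicate 2 (log2 3.22, limma adjusted p = 0.0583) and with a pseudocount of 5 (log2 1.45, limma adjusted p = 0.672). It was also lost with no filter (limma adjusted p = 0.267), with library weights (limma adjusted p = 0.285) and with only the groups compared in the fit (limma adjusted p = 1). With quantile normalization the log2 change was 1.81 (limma adjusted p = 0.923). Under a filter over only the libraries compared, the region was not tested, since their mean was under 10.

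**Figure D1:**
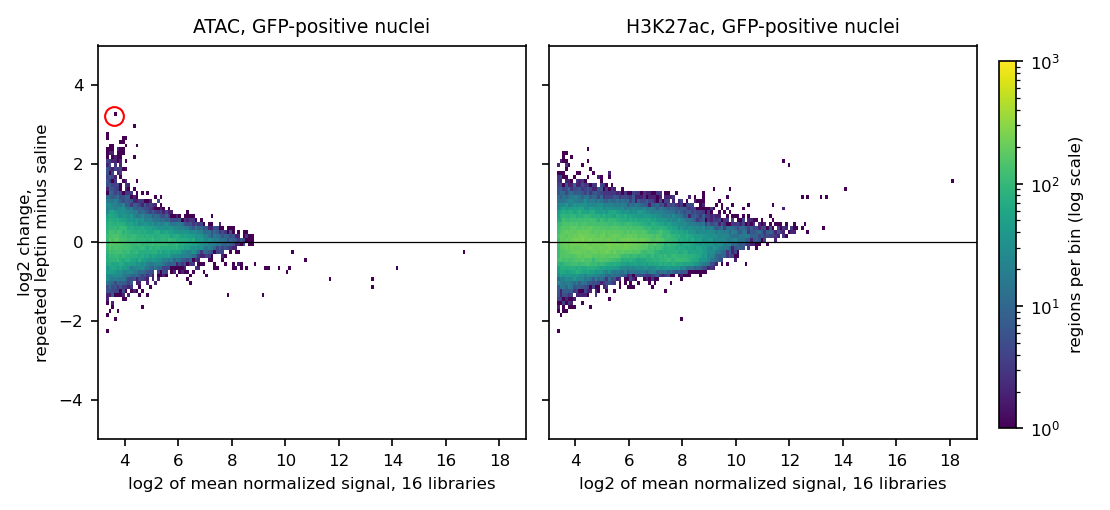
Log2 change of repeated leptin minus saline in GFP-positive nuclei (vertical axis, on the log2 signal + 1 scale) against the log2 of the mean normalized signal over 16 libraries (horizontal axis), for 31358 ATAC regions on the left and 98529 H3K27ac regions on the right; colour counts regions per bin on a log scale. The red circle marks the 1 called region, at 3.22, and both clouds lie about 0. They narrow from low to middle signal, and the strongest ATAC regions spread more widely again.

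The share of regions called was 0.00319% in ATAC. At an unadjusted p under 0.05, 1029 regions (3.28%) were higher and 832 (2.65%) lower with repeated leptin. Both repeated-leptin libraries lay above both saline libraries at 4490 regions (14.3%) and below both at 4731 regions (15.1%), so both directions were about equally frequent. The count called depended on which saline library was used. Against saline replicate 2 alone, 343 regions were called, 325 of them higher, and 161 of those 325 were listed at 0 in saline replicate 2. Only 164 tested regions were at 0 in that library, against 6 in saline replicate 1 and 3 and 5 in the repeated-leptin libraries. Among the 325, saline replicate 1 had a median of 16.6, beside 17.8 and 17.1 in repeated leptin. Against saline replicate 1 alone, 4 regions were called. Without repeated-leptin replicate 1, 5 regions were called, and without replicate 2 none was. The authors' deposited table lists no ATAC region with an FDR under 0.05 for this comparison, and 841 of 48374 with a p under 0.05. Among the 31358 regions tested here, 460 had such a p of theirs.

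The 8 regions with the smallest p among those higher in both repeated-leptin libraries were short, at 450 to 1007 bp, and weak, with mean signals of 10.4 to 21.6. Only the chromosome 6 region passed the test, and the adjusted p of the other 7 ran up to 0.374. In 6 of the 8, at least 1 saline library was listed at 0, and in 5 of them saline replicate 2 was. At chr3:150339760-150340307 both saline libraries were at 0 against 4.6 and 6.5 with repeated leptin (limma adjusted p = 0.149). At chr14:119221414-119222413 every library held signal, with 5.4 and 6.1 in saline and 16.5 and 22.4 after leptin, a log2 difference of 1.59 (SE 0.34, limma adjusted p = 0.374). At chr11:32202863-32203535 saline held 12.1 and 3.7 and repeated leptin 28.1 and 27.7, a difference of 1.88 (SE 0.41, limma adjusted p = 0.374). Fed GFP-positive nuclei lay between the groups at both places, with 9.6 and 11.1 at the chromosome 14 region and 20.8 and 19.5 at the chromosome 11 region.

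The 8 regions with the smallest p among those lower in both repeated-leptin libraries were longer, at 877 to 2313 bp, and none passed the test. All 8 overlap H3K27ac regions, as did all but 1283 of the 31358 tested ATAC regions. No saline library was at 0 in any of the 8. The first, chr11:69181408-69182920, held 32.5 and 54.3 in saline and 14.6 and 11.8 with repeated leptin, a log2 difference of −1.61 (SE 0.31, limma adjusted p = 0.159). There the repeated-leptin values were the lowest of all 16 libraries: single leptin gave 25.7 and 36.3, fed 26.4 and 25.1, and GFP-negative nuclei ranged from 18.8 to 24.9. At chr4:148264868-148265744 saline held 22.3 and 26.3 and repeated leptin 5.3 and 7.8 (log2 −1.76, SE 0.42, limma adjusted p = 0.58). Here the saline values were the highest of the 16 libraries, and the fed libraries held 14.3 and 12.5. The choice of these regions favours high saline and low repeated-leptin values. The remaining 6 had log2 differences from −1.35 to −0.93 and an adjusted p of 0.765 or 0.773.

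**Figure D2:**
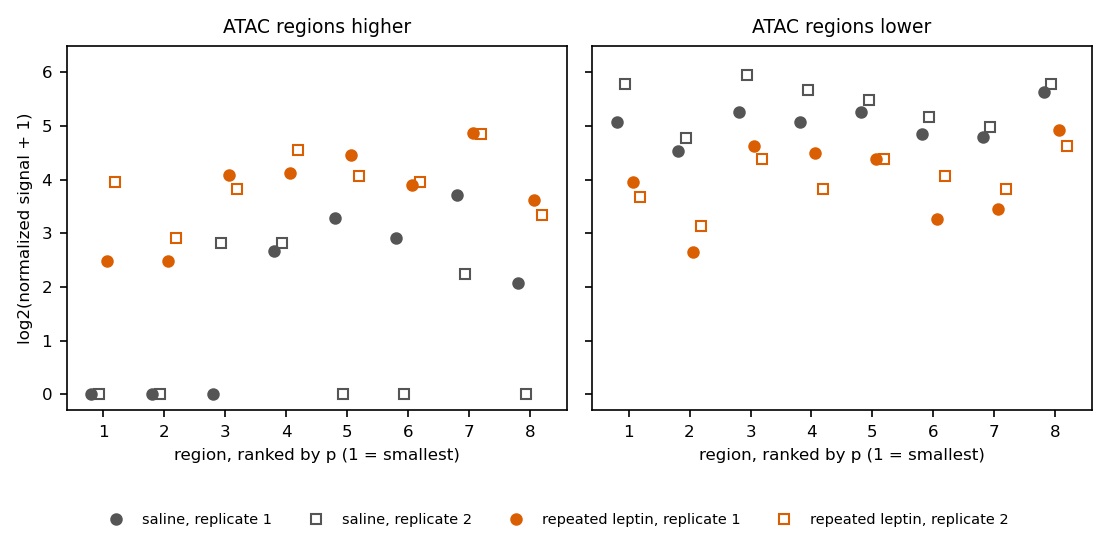
Log2(normalized signal + 1) in the 4 GFP-positive ATAC libraries (vertical axis) at the 8 regions higher and the 8 regions lower after repeated leptin with the smallest p, ranked by p (horizontal axis); grey is saline, orange repeated leptin, filled circles replicate 1 and open squares replicate 2. Grey points at 0 appear in 6 of the 8 higher regions and in none of the lower ones, and only the first higher region passed the test.

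Of the 8 higher regions, 4 belong to chromatin that is less open in LepRb nuclei than in other nuclei, a class that holds 1.24% of tested regions. The filter over all 16 libraries bears on both counts. In 3 of those 4, as in 172 of the 388 regions of the class (44.3%), the mean over the 4 libraries compared was under 10, so they were tested through signal in other libraries, beside 6.07% of all tested regions. The counts and medians of the class are thus a description. Sort classes were taken from libraries outside the comparison, the fed and single-leptin libraries of both sorts, in which 388 tested regions were less open and 282 more open in GFP-positive nuclei (limma adjusted p under 0.05). Over the 388 less open regions the median log2 change with repeated leptin was 0.19, against −0.01 over all tested regions. Both repeated-leptin libraries lay above both saline libraries at 87 of them (22.4%, beside 14.3% of all) and below both at 34 (8.76%, beside 15.1%). The libraries did not share this shift. Relative to the mean of the saline libraries, the median of the 388 was 0.48 in repeated-leptin replicate 2 and −0.14 in replicate 1, while the saline libraries themselves lay at −0.06 and 0.06. The GFP-negative saline and repeated-leptin libraries, which did not enter the choice of the class, lay from 0.75 to 1.01, so replicate 2 stood between the sorts. At the 282 regions more open in GFP-positive nuclei, replicate 1 lay at 0.24 and replicate 2 at −0.08, with the same GFP-negative libraries from −0.69 to −0.63. Without repeated-leptin replicate 2 the median change of the less open regions turned to −0.14. Whether the purity of the sort differed between these libraries was not tested.

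**Figure D3:**
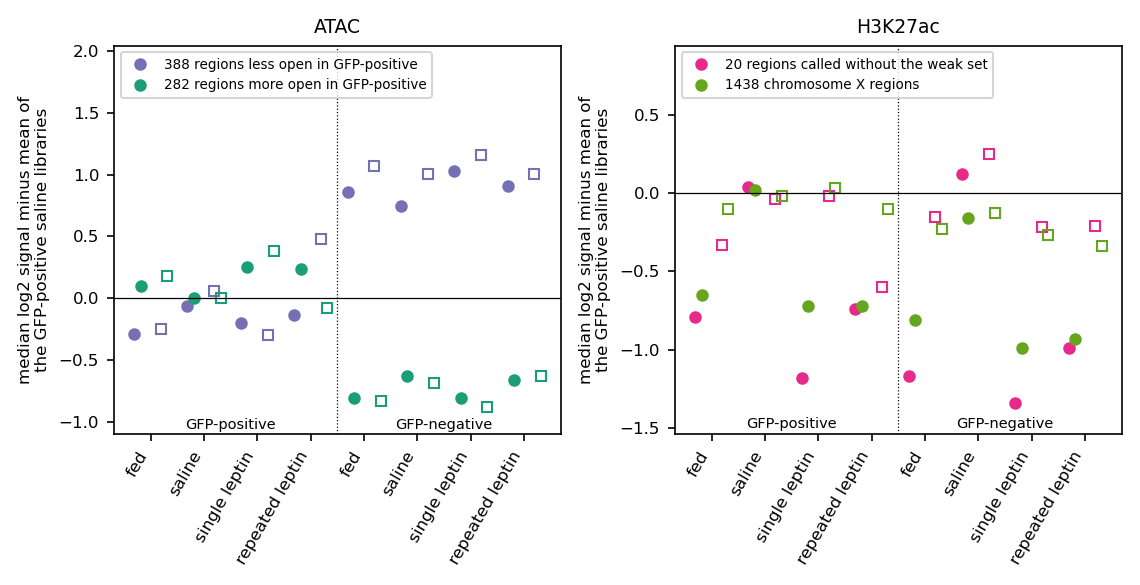
Median log2 signal + 1 of a class of regions in each of the 16 libraries, minus the mean of the 2 GFP-positive saline libraries (vertical axis), by treatment and sort (horizontal axis); filled circles are replicate 1 and open squares replicate 2, with ATAC on the left and H3K27ac on the right. In ATAC, repeated-leptin GFP-positive replicate 2 lies at 0.48 for the 388 regions less open in GFP-positive nuclei, and in H3K27ac the replicate 1 libraries of the fed and leptin groups lie lowest within their sort for both classes drawn, the 20 dense regions called without the weak libraries and the 1438 chromosome X regions.

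Other ways of sorting open chromatin gave medians close to 0. The 12162 regions inside broad H3K27ac regions of at least 10000 bp had a median log2 change of −0.04, the 17913 regions inside shorter H3K27ac regions 0.01, and the 1283 outside H3K27ac regions 0.03. Regions of at least 1500 bp had a median of −0.03 and shorter ones 0.01. On chromosome X the median was 0.04 over 547 regions. Each of these 6 medians changed sign when 1 of the 4 libraries was left out.

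Several of the strongest ATAC regions differed more between replicates of a group than between the groups. The mitochondrial genome, a circle of DNA without nucleosomes, had 113738.3 and 114870 in saline and 73394.1 and 121476 after repeated leptin (log2 −0.28, SE 3.59). That SE is moderated by the intensity trend of the fit. It is wider than the spread of these values, which over the 16 libraries ran from 66492.7 to 154235.2. A 5810 bp region at chr17:39979963-39985772 held 14719.1 and 30137.5 in saline and 8012.5 and 23684.4 after repeated leptin (log2 −0.61, SE 1.11). In both groups replicate 2 was the higher library at these 2 regions, and at the chromosome 17 region it was so in all 8 groups. At chr3:5860356-5860826, a short region of 471 bp, saline held 715.2 and 2043.3 and repeated leptin 457 and 1368.6, again with replicate 2 higher in all 8 groups. Within a replicate number, repeated leptin was 63.9% and 67% of saline there, below it in both. All 8 strongest regions had a negative log2 change, from −1.11 to −0.27, and from −0.47 to 0.18 with repeated-leptin replicate 2 alone. Both repeated-leptin libraries lay below both saline libraries at chr9:3000010-3038202 (log2 −1.11), chr2:98506418-98507401 (log2 −0.91) and chr2:98502412-98504231 (log2 −0.95). No strongest region passed the test, with a limma adjusted p from 0.84 to 0.998.

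H3K27ac passed the test between repeated leptin and saline at none of the 98529 regions tested (0%, limma; smallest adjusted p = 0.929). At an unadjusted p under 0.05, 1539 regions (1.56%) were higher and 903 (0.916%) lower. Both repeated-leptin libraries lay above both saline libraries at 21795 regions (22.1%) and below both at 21269 (21.6%). The median log2 change was 0, with 50% of regions between −0.27 and 0.28. The authors' deposited table lists no region with an FDR under 0.05 for this comparison either, and 1128 of 126368 with a p under 0.05. Among the 98529 regions tested here, 863 had such a p of theirs. Signal of the saline libraries correlated at r = 0.972 across regions and that of repeated-leptin replicate 2 with them at 0.971 and 0.967. Replicate 1 correlated with the other 3 at 0.91 to 0.933, so it was the library farthest from the rest.

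Among regions higher in both repeated-leptin libraries, the 8 with the smallest p had log2 differences of 1.2 to 1.93, and 1.02 to 1.45 with replicate 2 alone. The region chr17:71475409-71477301 held 14.7 and 11.9 in saline and 33.4 and 34.7 after leptin (log2 1.30, SE 0.31, limma adjusted p = 0.929). At chr15:58597571-58599510 saline held 10.1 and 10.6 and repeated leptin 31.6 and 30.0, but the fed libraries held 29.7 and 24.1. Saline was thus the lowest GFP-positive group at the chromosome 15 region, since single leptin gave 28.2 and 17.6. The choice of these regions favours low saline values, so this is a description. At chr4:139092360-139094265, first by p, saline held 6.9 and 4.3 and repeated leptin 34.3 and 16.3. The weak replicate 1 carried the larger value there, as in 7 of the 8 regions, and the log2 difference of 1.93 became 1.42 with replicate 2 alone. None of the 8 overlaps an ATAC region, like 68518 of the 98529 H3K27ac regions tested.

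Among regions lower in both repeated-leptin libraries, the 8 with the smallest p had log2 differences of −1.78 to −1.0, and −1.78 to −0.86 with replicate 2 alone. At chr7:125354502-125355762 saline held 14.7 and 17.8 and repeated leptin 3.7 and 4.8 (log2 −1.72, SE 0.36, limma adjusted p = 0.929). At chr3:40985995-40987278 saline held 40.8 and 38.1 and repeated leptin 15.1 and 14.3. Single leptin, at 11 and 18.6, and fed mice, at 19.3 and 17.6, were also below saline at the chromosome 3 region. The choice of these regions favours high saline values. With replicate 2 alone the smallest adjusted p over the 8 was 0.249.

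**Figure D4:**
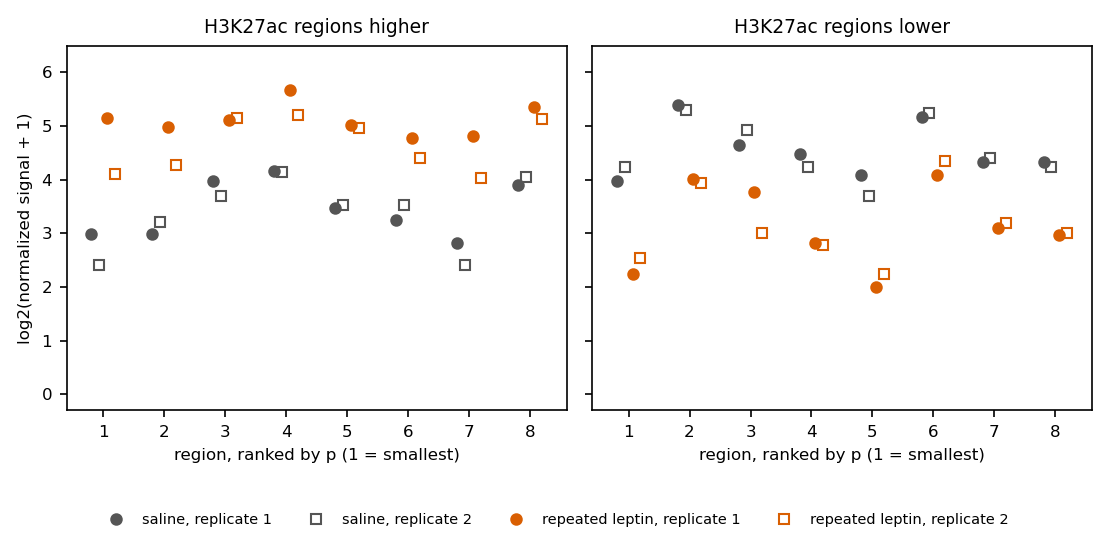
Log2(normalized signal + 1) in the 4 GFP-positive H3K27ac libraries (vertical axis) at the 8 regions higher and the 8 regions lower after repeated leptin with the smallest p, ranked by p (horizontal axis); grey is saline, orange repeated leptin, filled circles replicate 1 and open squares replicate 2. The groups are apart at all 16 regions, as the choice of regions requires, and none passed the test (adjusted p = 0.929).

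With repeated-leptin replicate 2 alone, and the whole weak set left out, 27 H3K27ac regions were called (0.0274%), 1 higher and 26 lower. In this fit of 10 libraries the spread came from the saline groups alone, with 2 residual degrees of freedom, and the lone repeated-leptin library was assumed to vary like them. The 1 higher region is mitochondrial (M:10861-16299), with 436.9 and 807.8 in saline and 1227.7 in repeated-leptin replicate 2. Of the 26 lower regions, 6 were short and listed at 0 in replicate 2, while replicate 1 held 9.3 to 18.5 there. The other 20 were 3133 to 23227 bp long, all overlapped ATAC regions, and their log2 differences ran from −0.71 to −0.46. At chr1:183944156-183953111 saline held 622 and 540.9, replicate 2 373.5 and replicate 1 323.8. At chr5:149860616-149865350 saline held 400.5 and 360.5, replicate 2 246.3 and replicate 1 189.8.

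At these 20 dense regions both repeated-leptin libraries lay below both saline libraries, and so did other libraries. Relative to the mean of the saline libraries, the median of the 20 was −0.60 in repeated-leptin replicate 2 and −0.74 in the weak replicate 1. It was −0.79 and −0.33 in the fed and −1.18 and −0.02 in the single-leptin libraries of the same sort, replicate 1 first. In GFP-negative nuclei, replicate 2 of repeated leptin lay at −0.21, and the saline libraries of that sort at 0.12 and 0.25. Repeated-leptin replicate 2 was thus below the saline libraries of its own sort in GFP-negative nuclei too. All 6 weak libraries lay between −1.34 and −0.74. Repeated-leptin replicate 2 is not among them: its difference of dense and sparse regions, 1.61, was close to that of saline replicate 2, 1.63. Fed replicate 2, with a difference of 1.6, was also below both saline libraries at 20 of the 20 regions. The part of enrichment in the difference at the 20 regions was not tested, and the regions were chosen on these libraries, so their values are a description.

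Classes of H3K27ac regions differed more with the weak replicate 1 than without it. On chromosome X the median log2 change was −0.42 over 1438 regions, but −0.10 with replicate 2 alone. GFP-negative nuclei gave −0.51, and their repeated-leptin replicate 1 is weak too. Relative to the GFP-positive saline libraries, that library lay at −0.93 and GFP-negative repeated-leptin replicate 2 at −0.34. The GFP-negative saline libraries lay at −0.16 and −0.13. Regions of at least 10000 bp had a median of 0.14 (n = 9296), and 0.03 with replicate 2 alone. Regions that overlap an ATAC region had −0.16 (n = 30011), and −0.02 with replicate 2 alone. All 3 medians were nearer 0 without the weak library. No H3K27ac region passed the limma test for the sort in the fed and single-leptin libraries. At an unadjusted p under 0.05, 7556 regions were lower in GFP-positive nuclei there, and their median change with repeated leptin was 0.25, or 0.09 with replicate 2 alone. The 5380 nominally higher regions had −0.16 and −0.05.

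The H3K27ac regions with most signal were highest, of the 4 libraries compared, in the weak library at all 8 named regions. The strongest, chr2:98502227-98507677, held 11045.7 and 34890.9 in saline and 147563.1 and 22873.9 after repeated leptin, the largest value being that of the weak library (log2 1.57, SE 2.06). With replicate 2 alone the log2 difference was 0.22. A 186243 bp region at chr8:119779124-119965366 held 5194.2 and 5686.3 in saline and 7594 and 5848.3 after repeated leptin, a difference of 0.29 that became 0.11 with replicate 2 alone. Over the 8 strongest regions the log2 difference was 0.29 to 1.57 with both libraries and −0.07 to 0.22 with replicate 2 alone.

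Replicate pairs that share no library were set side by side to see how far the leptin change recurred. In ATAC, the change from saline replicate 1 to repeated-leptin replicate 1 and the change between the second replicates correlated at r = 0.01 across 31358 regions, and −0.18 with the pairs crossed. The difference between GFP-positive and GFP-negative nuclei in saline mice, taken the same way, gave 0.23 and 0.11. In H3K27ac, the leptin change gave 0.12 and 0.30 across 98529 regions, and the sort difference in saline 0.61 and 0.60. In repeated-leptin mice the sort difference gave 0.19 and 0.04 in ATAC and 0.33 and −0.14 in H3K27ac. The sort difference of saline mice thus recurred more than the leptin change in both assays, while that of repeated-leptin mice did not in H3K27ac with the pairs crossed. Neighbouring regions are not independent, and the pairs of the leptin change in H3K27ac set a weak and a normal library against saline. In repeated-leptin mice, the crossed H3K27ac pairs of the sort difference set a weak library against a normal one, in opposite directions. The −0.14 can thus not show whether that sort difference recurred.

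**Figure D5:**
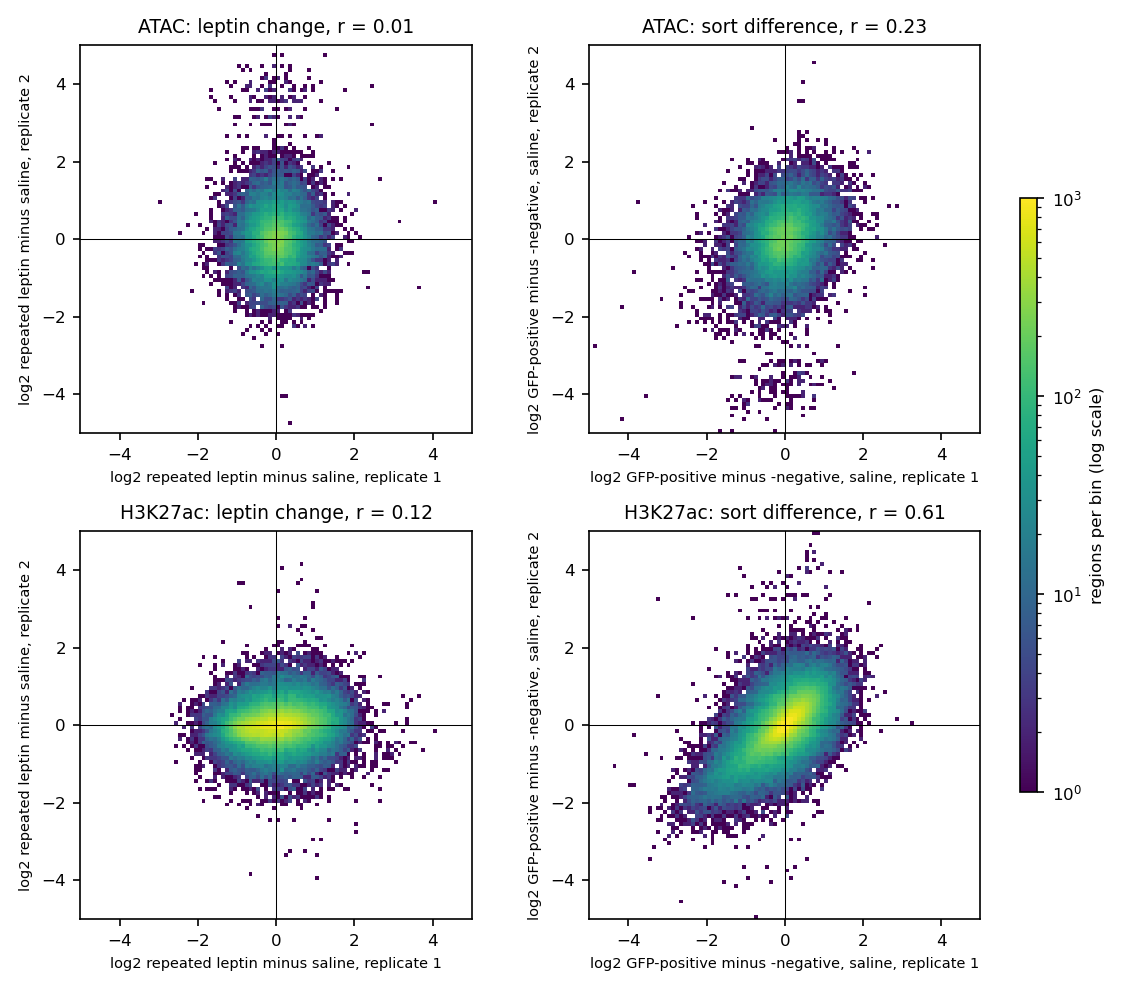
Log2 differences in replicate pair 1 (horizontal axis) against replicate pair 2 (vertical axis), for repeated leptin minus saline in GFP-positive nuclei on the left and GFP-positive minus GFP-negative nuclei in saline mice on the right, with ATAC above and H3K27ac below; colour counts regions per bin on a log scale, and 3 ATAC regions beyond the axis limit of 5 are drawn at the edge. The clouds follow the diagonal for the H3K27ac sort difference (r = 0.61) and hardly at all for the ATAC leptin change (r = 0.01).

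Where open chromatin and acetylation were measured at the same place, their changes were nearly uncorrelated. Over 30698 overlapping pairs of regions, the log2 changes of both assays correlated at r = −0.08, and at −0.0142 with repeated-leptin replicate 2 alone in H3K27ac. The sort difference of the fed and single-leptin libraries correlated at 0.31 over the same pairs. Of 4287 ATAC regions without overlap of the groups and higher, 684 (16%) touched an H3K27ac region that was likewise higher, beside 19.2% of all 30028 paired ATAC regions. Those H3K27ac regions numbered 604, or 18.5% of the 3257 higher ones with an ATAC partner. For the lower direction the shares were 28.1% of ATAC regions, beside 31% of all, and 15.2% of H3K27ac regions. In opposite directions, 33.2% of higher ATAC regions touched a lower H3K27ac region, beside 31% of all. Of lower ATAC regions, 22.8% touched a higher H3K27ac region, beside 19.2% of all. These were 16.9% of the lower and 26.2% of the higher H3K27ac regions with an ATAC partner. Shares over all paired H3K27ac regions were not counted.

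Among the regions without overlap in the same direction in both assays, the chromosome 6 region again had the smallest ATAC p. The 8736 bp H3K27ac region around it held 44 and 45.6 in saline and 118.2 and 65 after repeated leptin (log2 0.95, SE 0.46, limma adjusted p = 0.929), and 0.53 with replicate 2 alone. Acetylation there was higher in GFP-negative nuclei, at 191.5 and 179.5 in saline. The fed and single-leptin GFP-positive libraries held 92.9 and 121.7 in the weak replicate 1 and 44.9 and 39.5 in replicate 2. Replicate 2 of those groups was thus close to saline, while replicate 2 of repeated leptin, at 65, lay above it.

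Around the lower ATAC region on chromosome 11, the H3K27ac region chr11:69174164-69188119 held 748.3 and 721.3 in saline and 598.8 and 582.5 after repeated leptin, a log2 difference of −0.31 (SE 0.30, limma adjusted p = 0.929) and −0.33 with replicate 2 alone. Another such place, chr7:148233464-148235523, had ATAC values of 29.1 and 21.9 in saline and 53.3 and 54 after repeated leptin (log2 1.06, SE 0.26, limma adjusted p = 0.664). In the fed and single-leptin libraries it was more open in GFP-positive nuclei (log2 0.77, limma adjusted p = 0.0223). Its H3K27ac region held 157.4 and 152.4 against 183.8 and 205.8 (log2 0.33, SE 0.27), and 0.41 with replicate 2 alone. Single leptin gave 48.8 and 59.1 in ATAC there and fed mice 46 and 38.8, so saline was the lowest GFP-positive group. These places were chosen with the groups apart, which favours low saline values where repeated leptin is higher. None of the 8 H3K27ac regions at these places passed the test.

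The change in LepRb nuclei was set against that in the remaining hypothalamic nuclei, and no region passed the test. The difference between the changes of both sorts was called at no ATAC region (0%, limma; 819 at an unadjusted p under 0.05, smallest adjusted p = 0.585) and at no H3K27ac region (0%; 1869, smallest adjusted p = 1). Without saline GFP-positive replicate 1, 145 ATAC regions were called for this difference, all higher, and 1 without saline replicate 2. The authors' deposited table lists 0 ATAC regions and 1 H3K27ac region with an FDR under 0.05 for the term that, by its name, is this difference. No region passed the test between repeated leptin and a single late injection either (0% called in both assays, limma). There, 1267 ATAC regions (4.04%) and 1325 H3K27ac regions (1.34%) had an unadjusted p under 0.05. Without single-leptin replicate 1, 90 ATAC regions were called, and 4 without repeated-leptin replicate 1. With the weak H3K27ac libraries left out, 12 H3K27ac regions were called for the difference between sorts and 26 for repeated against single leptin, with 1 repeated-leptin library a sort and 1 single-leptin library, so that the 26 rest on 1 library against 1. The authors' deposited table lists none for repeated against single leptin in either assay.

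These libraries bound the size of a change only in part. The 95% interval of the log2 change reached 0.72 to either side of the estimate at the median ATAC region and 0.82 at the median H3K27ac region. On the scale of signal + 1 it lay wholly within a 2-fold change in either direction at 17109 ATAC regions (54.6%) and 38883 H3K27ac regions (39.5%). That scale understates changes of low regions, so at weak ones a 2-fold change of signal itself may not be excluded. At the remaining regions a 2-fold change was not excluded. By median, ATAC intervals were widest where signal was low, at 0.87 for mean signals of 10 to 20 and 0.49 for those of 40 to 80. They widened again at the strongest ATAC regions, to 0.54 for mean signals of 320 or more. Single strong regions, such as the mitochondrial genome, had far wider intervals.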

How the data were processed

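ATAC-seq and H3K27ac ChIP-seq libraries of sorted hypothalamic nuclei were analysed from 2 tables, 16 libraries each. The RNA samples (23) and the inputs (16 of ChIP-seq, 4 of ATAC-seq) were left aside. For ChIP-seq, per the labels' protocols, 300000 to 540000 nuclei were sorted. Groups came from titles, treatment and sort labels.

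Per the file headers, the authors deposited normalized signal (headed normalized counts) for each region and library. How it was normalized is not given in the sources used. Low values fell on uneven steps, so whole reads could not be recovered, no count model was used and depth is unknown. The log2 ratios, p-values and FDR of the authors' deposited comparisons are quoted only as theirs. The submitters' processing notes name build mm9, Bowtie 1.2, Bowtie2 2.2.6, MACS2 and DESeq2 1.16.1, without tying them to a step.

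Regions with a mean signal of at least 10 were fitted on log2(signal + 1), which understates changes of low regions, with limma 3.58.1 in R 4.3.3: a mean for each of 8 groups, an intensity trend, and two-sided p-values adjusted by Benjamini-Hochberg over all tested regions of the assay. Calls were made at an adjusted p under 0.05. Overlaps (GenomicRanges 1.54.1) needed 1 bp. Starts were raised by 1. No 2 libraries held identical values. The fit was tested on simulated data with independent normal spread. These lacked the zeros, stepped low values and weak libraries seen here, so that test does not bear on them. Plots used matplotlib.

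Per list, the 8 regions with the smallest p among those without overlap of the groups, the 8 with the highest signal, and the 8 ATAC regions without overlap in the same direction in both assays were named. The regions, lists and tests were chosen with earlier results of these data known. Planned gene and marker lists were not used, since the files pair regions with no genes and the reference tables are of another build. Alternatives were normalization, centring, filters, pseudocounts, the replicate block, the libraries in the fit, library weights, the weak set as a term and each library left out.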

Additional observations from a re-analysis of the deposited data

Results flagged for a closer look

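In the authors' deposited table, 1 H3K27ac region passed an FDR of 0.05 for the term that sets the effect of repeated leptin in GFP-positive nuclei apart from that in GFP-negative nuclei, chr4:145591930-145615018 (23089 bp; log2 −17.95, FDR 0.00475). Both GFP-positive repeated-leptin libraries were listed at 0 there, beside 2.6 and 2.9 in saline. GFP-negative nuclei held 6.3 and 2.9 after repeated leptin and 0 and 3.3 in saline. The mean signal passed the filter through fed replicate 1, which held 3311.9 in GFP-negative and 596.6 in GFP-positive nuclei. In the limma fit the difference between the changes of both sorts was −3.27 (SE 3.35, limma adjusted p = 1).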

How the results depend on the processing

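The ATAC comparison of repeated leptin with saline in GFP-positive nuclei, with 1 region called, gave 0 with quantile normalization, with the filter over only the libraries compared, with a pseudocount of 5, with only the groups compared in the fit and with library weights. It gave 3 with no filter, the chromosome 6 region not among them, and 2 with a pseudocount of 0.1. With the replicate block it gave 17, of which 11 were higher. The strong region chr3:5860356-5860826 was among the lower ones (log2 −0.61, limma adjusted p = 0.0464). The labels do not say that replicate numbers mark a shared pool, so the block is no more than an alternative. The replicate deviations of both groups correlated at 0.18 in ATAC and −0.18 in H3K27ac, and ATAC replicate 2 exceeded replicate 1 in all 8 groups at 3 of the 8 strongest regions, so numbers are not without structure in ATAC. The block changed no other count of calls. Leaving out each library in turn gave 0 to 343. The difference between the changes of both sorts, with 0 called in ATAC, gave 5 with no filter, 1 with a pseudocount of 0.1 and 0 to 145 with a library left out. Repeated against single leptin, with 0 called in ATAC, gave 4 with no filter and 0 to 90 with a library left out. In H3K27ac all 3 counts were 0. Only the 10 libraries outside the weak set gave 27, 12 and 26 regions for repeated leptin against saline, the difference between sorts and repeated against single leptin. The first also gave 0 to 1 with a library left out. The cause of these changes was not tested. Of the values of the named regions under all alternatives, none of 242 in ATAC and none of 359 in H3K27ac changed sign, leaving aside the strongest regions. These regions were chosen with the groups apart, so most alternatives, such as leaving out a library, could not turn the sign. The absence of sign changes is thus largely a result of the choice. The alternatives for medians of classes were chosen after seeing the data. Signals near 10 rest on few distinct values in a library, which limits what can be seen at weak regions.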
